A study of Mus musculus with 9 samples.

Results

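The 38 genes described here encode the glycolytic pathway from glucose entry to lactate export, the oxygen-sensing machinery built around the hypoxia-inducible factors (HIF), and a group of transcripts that hypoxia is known to induce. They were taken by gene symbol from a list, with no threshold on their values, and all 38 were found among the 24421 symbols of the count tables. All 38 also passed the filter on low counts that left 14054 genes for testing. The tissue was the retinal pigment epithelium (RPE) and choroid of male mice aged 8 weeks with laser-induced choroidal neovascularization (CNV), a model in which a burn breaks the Bruch membrane and choroidal vessels grow through it. Every eye had 4 burns and an intravitreal injection of 5 µg of a reagent, so the injury and the injection are common to all groups. The 3 ABTAA libraries came from eyes given an angiopoietin 2 antibody that also switches on Tie2, a receptor of endothelial cells. The 3 VEGF Trap libraries came from eyes given a soluble decoy receptor for vascular endothelial growth factor (VEGF). The 3 Fc libraries came from eyes given the Fc control protein. The lesion with a margin of RPE and choroid was cut out by laser capture. The labels give no strain, no day of collection and no animal for any library, so the p-values speak only of variation among these 9 libraries, part of which may be technical. Eyes without a burn were not analysed here, so the values compare treatments within injured tissue and do not give a hypoxic against a normoxic state.

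HIF consists of an oxygen-regulated alpha subunit (Hif1a or Epas1) and the constant partner Arnt. With oxygen present, prolyl hydroxylases (Egln1, Egln3) mark the alpha subunit and the Vhl ubiquitin ligase complex removes it, so its activity is set largely at the protein and not at the transcript. In hypoxia the stabilised dimer binds short hypoxia response elements and raises transcription of glucose transporters, glycolytic enzymes, lactate dehydrogenase A, the lactate exporter Slc16a3 and stress genes such as Bnip3. Photoreceptors release large amounts of lactate, which the RPE takes up and passes to the choroid, and new vessels in CNV grow beside macrophages and RPE cells that produce VEGF.

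The libraries held 6335805 to 14439835 counts in total, and levels are given as CPM, counts scaled by TMM-adjusted library totals. A level of 3 counts, taken as the detection floor, equals between 0.209 and 0.469 CPM; that floor reflects sampling of reads alone. The labelled tissue was present in every library, with all 6 RPE markers detected (Rpe65, Rlbp1, Lrat, Best1, Ttr and Rgr) at a summed 1385 to 2101 CPM in ABTAA, 1454 to 1844 CPM in VEGF Trap and 1113 to 1797 CPM in Fc libraries. Some libraries stood apart in other cell types. The summed neutrophil markers S100a8, S100a9 and Retnlg were 41.9 to 53.3 CPM in ABTAA, 43.9 to 92.8 CPM in VEGF Trap and 78.9 to 497 CPM in Fc libraries, with Fc 1 at the top, and lens crystallin transcripts reached 33.5 CPM in VEGF Trap 1. Melanocyte markers (4 of 4 detected) summed to 2382 to 2529.6 CPM in ABTAA, 1958 to 3695 CPM in VEGF Trap and 1890.5 to 2120.5 CPM in Fc libraries, so ABTAA lay above Fc without overlap and VEGF Trap 1 was the highest library. Of these 4, Pmel rose in ABTAA against Fc, and Pmel and Tyr rose in VEGF Trap against Fc (adjusted p = 0.00872, 0.0322 and 0.0478, edgeR). Skeletal muscle markers (6 of 6 detected) summed to 173 to 372 CPM in ABTAA, 166 to 305 CPM in VEGF Trap and 80.0 to 120.2 CPM in Fc libraries, without overlap between either treatment and Fc. Endothelial markers (6 of 6) summed to 1033 to 1139 CPM in ABTAA, 815 to 860.2 CPM in VEGF Trap and 639 to 794 CPM in Fc libraries, and macrophage markers (6 of 6) to 1041 to 1261 CPM in ABTAA, 1288 to 1509 CPM in VEGF Trap and 1291 to 1401 CPM in Fc libraries. Between ABTAA and Fc, 6 of 6 skeletal muscle and 4 of 6 endothelial markers were higher in ABTAA at an adjusted p under 0.05 in edgeR. There 1 of 6 macrophage and 1 of 2 tested neutrophil markers were lower, where 1.4% of all genes were called. Between VEGF Trap and Fc, 3 of 6 skeletal muscle markers were higher, and no endothelial, macrophage or neutrophil marker was called, where 1.02% of all genes were. In such bulk tissue, fewer cells of a type and less RNA per cell cannot be told apart.

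None of the 38 genes passed the test in any comparison (edgeR quasi-likelihood test, Benjamini-Hochberg adjusted p under 0.05 over all 14054 genes). Between ABTAA and Fc, 0 of 38 passed, where 1.4% of all genes did. Between VEGF Trap and Fc, 0 of 38 passed, where 1.02% of all genes did. Between ABTAA and VEGF Trap, 0 of 38 passed, as did 0% of all genes. The test of any difference among the 3 groups called 0 of 38, where 1.03% of all genes were called. The lowest adjusted p-values of edgeR were 0.113 for Arnt between ABTAA and Fc, 0.137 for Aldoc between VEGF Trap and Fc, 0.851 for Slc16a3 between ABTAA and VEGF Trap, and 0.0752 for Slc16a3 over the 3 groups. DESeq2 called 3 of the 38 between ABTAA and Fc (Arnt and Ndrg1 higher, Ldha lower), 0 in either other contrast, and 1 (Slc16a3) over the 3 groups.

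At an unadjusted p under 0.05 in edgeR, 8 of the 38 genes stood out between ABTAA and Fc, where 16.9% of all genes did. Pfkm, Epas1, Arnt and Ndrg1 were higher in ABTAA (4 of 38, where 8.64% of all genes were), and Slc2a1, Hk2, Gapdh and Ldha were lower in ABTAA (4 of 38, where 8.23% were). Between VEGF Trap and Fc 5 of 38 did, all higher in VEGF Trap (Pfkm, Aldoc, Slc16a1, Slc16a3 and Ndrg1), where 15.4% of all genes stood out and 7.89% were higher. Between ABTAA and VEGF Trap 4 of 38 did, all lower in ABTAA (Slc2a1, Aldoc, Slc16a3 and Bnip3), where 5.06% of all genes stood out and 2.42% were lower. Over the 3 groups 11 of 38 did, where 15.5% of all genes did. The median log2 fold change over the 38 genes was -0.11 for ABTAA minus Fc, 0.10 for VEGF Trap minus Fc, and -0.12 where ABTAA was set against VEGF Trap, with 0.00 over all genes in each. Both treatments were set against the same 3 Fc libraries, so these contrasts are not independent.

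The intervals show how large a difference the libraries could hide. The 95% interval lay within a 2-fold change in either direction for 32 of 38 genes between ABTAA and Fc, for 31 between VEGF Trap and Fc, and for 32 between ABTAA and VEGF Trap. It lay within 1.5-fold for 19, 24 and 23 genes in the same contrasts. The median distance from the estimate to a bound was 0.34 on the log2 scale in each contrast. The widest intervals belonged to the low transcripts Car9 and Ankrd37, which had as few as 1 count in a library.

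**Figure D1:**
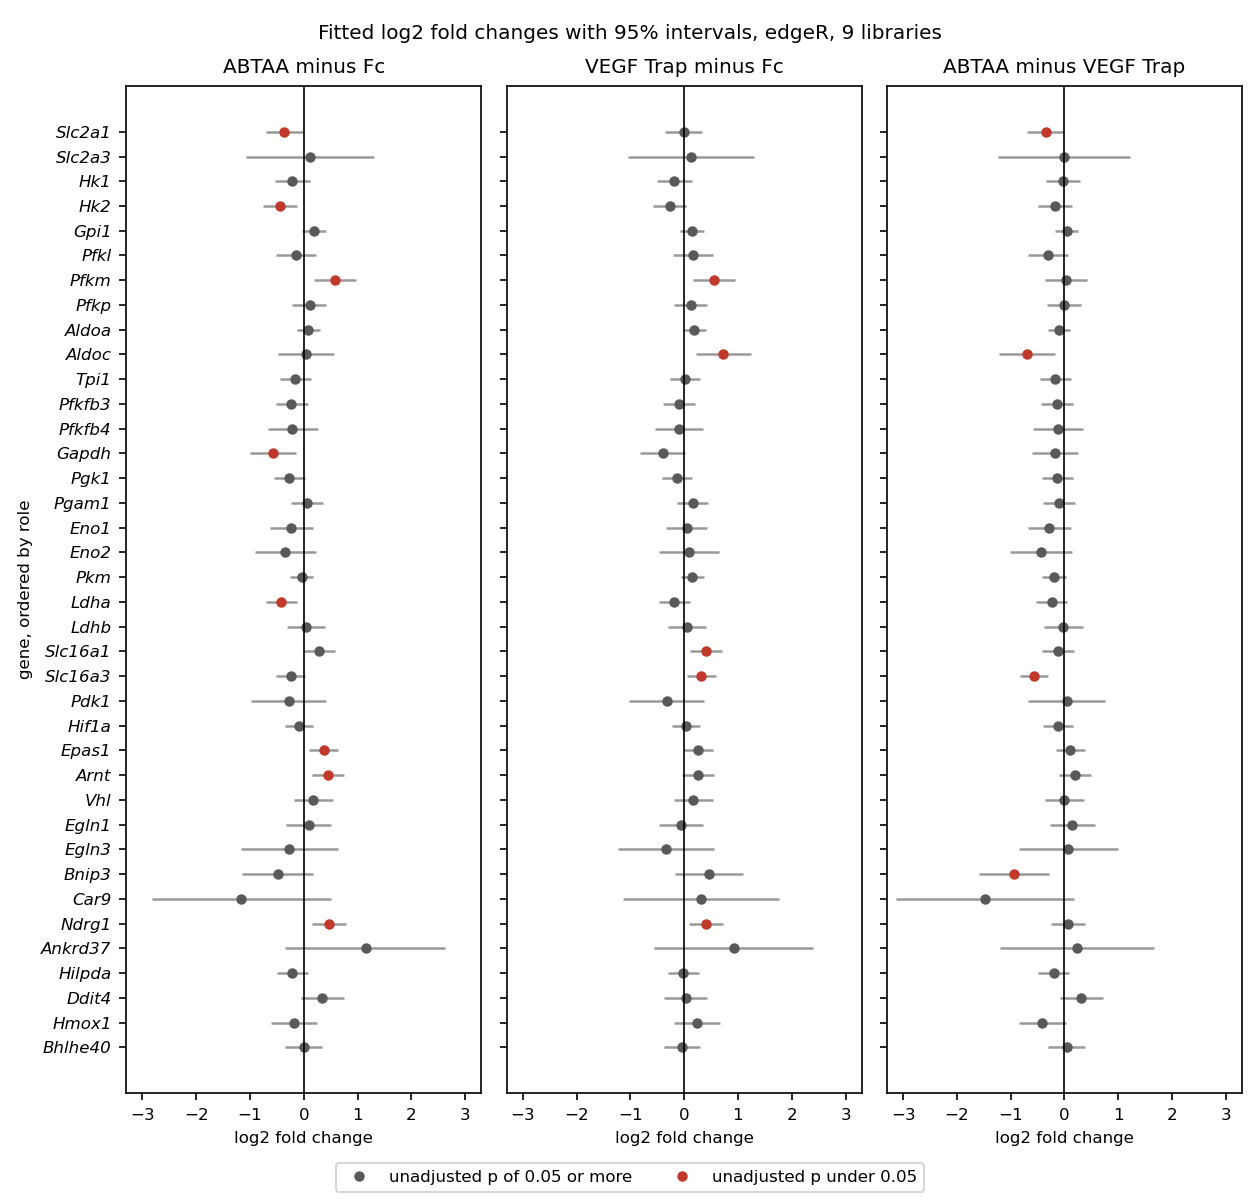
Fitted log2 fold change (point) and 95% interval (line, not adjusted for the number of genes) of each of the 38 genes in the contrasts named above each panel, from edgeR on all 9 libraries. Red points mark an unadjusted p under 0.05, which 8, 5 and 4 genes had in the 3 panels, and none passed after adjustment.

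Glucose enters RPE and endothelial cells mainly through Slc2a1 (Glut1). Slc2a1 had 22.8, 28.5 and 31.7 CPM in the ABTAA libraries, 36.0, 31.3 and 38.5 CPM in the VEGF Trap libraries and 29.6, 36.3 and 40.4 CPM in the Fc libraries. ABTAA 1 and 2 lay below every Fc library, and ABTAA 3 lay within the Fc range, so the groups overlapped. The log2 fold change was -0.36 ± 0.16 (SE) for ABTAA minus Fc (adjusted p = 0.275, edgeR), -0.01 ± 0.16 for VEGF Trap minus Fc, and -0.35 ± 0.16 where ABTAA was set against VEGF Trap (adjusted p = 0.956). The neuronal glucose transporter Slc2a3 (Glut3) stayed between 0.610 and 1.80 CPM in all 9 libraries, too low to resolve a 2-fold difference.

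Hexokinases trap glucose in the cell by phosphorylation. The inducible isozyme Hk2, which HIF is known to raise, had 31.1, 27.9 and 35.3 CPM in the ABTAA libraries, 34.3, 40.0 and 31.3 CPM in the VEGF Trap libraries and 43.8, 37.6 and 45.8 CPM in the Fc libraries. All 3 ABTAA libraries lay below all 3 Fc libraries, with VEGF Trap across the gap. Its log2 fold change was -0.44 ± 0.15 for ABTAA minus Fc (adjusted p = 0.138, edgeR) and -0.26 ± 0.15 for VEGF Trap minus Fc (adjusted p = 0.408). The widely expressed isozyme Hk1 had 63.7, 62.4 and 81.0 CPM in the ABTAA libraries, 62.7, 64.7 and 83.8 CPM in the VEGF Trap libraries and 72.1, 91.0 and 75.8 CPM in the Fc libraries, with overlap between all groups and a log2 fold change of -0.21 ± 0.15 for ABTAA minus Fc (interval -0.53 to 0.11). Gpi1, the isomerase that follows, was 151 to 157 CPM in ABTAA, 142 to 162 CPM in VEGF Trap and 132 to 137 CPM in Fc libraries, so both treatments lay above Fc without overlap, by 0.19 ± 0.10 and 0.15 ± 0.10 on the log2 scale, and neither difference passed (adjusted p = 0.369 and 0.543, edgeR).

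Phosphofructokinase is the committed step, and it has 3 isozymes. The muscle isozyme Pfkm had 31.3, 34.5 and 27.2 CPM in the ABTAA libraries, 37.1, 30.5 and 23.7 CPM in the VEGF Trap libraries and 16.8, 20.6 and 24.7 CPM in the Fc libraries. Every ABTAA library was above every Fc library, while VEGF Trap 3 lay inside the Fc range. Log2 fold changes were 0.58 ± 0.19 for ABTAA minus Fc (adjusted p = 0.119, edgeR) and 0.56 ± 0.18 for VEGF Trap minus Fc (adjusted p = 0.139). The liver isozyme Pfkl had log2 fold changes of -0.14 ± 0.18 and 0.16 ± 0.17 in the same contrasts, and the platelet isozyme Pfkp 0.11 ± 0.15 and 0.12 ± 0.15. The skeletal muscle marker sum given above was also higher in both treatments than in Fc, and its part in the Pfkm values was not tested. Pfkm overlaps an exon of Senp1 on the other strand. Whether the overlap reaches the 3′ end, where these libraries read, was not examined. The strand setting of the counting is not given in the sources used here.

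Aldolase C, an isozyme best known from brain, had higher values in VEGF Trap than in ABTAA libraries. Its counts were multiples of 2 in every library. Aldoc had 8.67, 7.93 and 6.25 CPM in the ABTAA libraries, 16.1, 12.0 and 8.86 CPM in the VEGF Trap libraries and 6.91, 7.97 and 7.48 CPM in the Fc libraries. All 3 VEGF Trap libraries were above all ABTAA and Fc libraries, although VEGF Trap 3 exceeded ABTAA 1 only slightly. The log2 fold change was 0.73 ± 0.24 for VEGF Trap minus Fc (adjusted p = 0.137, edgeR) and -0.69 ± 0.24 for ABTAA minus VEGF Trap (adjusted p = 0.932). Without VEGF Trap 1, the highest library, these became 0.50 and -0.46, and the other omissions of a library gave up to 0.91 and down to -0.87. VEGF Trap 1 was also the library with the most lens transcripts, the most melanocyte marker transcripts and the most photoreceptor marker transcripts (143 CPM, against 26.9 to 73.8 CPM in the other libraries), and their part in the Aldoc value was not tested. The far more abundant muscle aldolase Aldoa was 762 to 896 CPM in ABTAA, 855 to 933 CPM in VEGF Trap and 738 to 834 CPM in Fc libraries (log2 0.08 ± 0.10 and 0.19 ± 0.10 against Fc). The isomerase Tpi1 had log2 fold changes of -0.16 ± 0.13 for ABTAA minus Fc and 0.01 ± 0.13 for VEGF Trap minus Fc.

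The enzymes that set fructose 2,6-bisphosphate, the activator of phosphofructokinase, overlapped between groups. Pfkfb3, the isoform that drives glycolysis in sprouting endothelial cells, had 319, 258 and 345 CPM in the ABTAA libraries, 291, 364 and 359.6 CPM in the VEGF Trap libraries and 395, 387 and 296 CPM in the Fc libraries. The log2 fold change was -0.23 ± 0.14 for ABTAA minus Fc (interval -0.52 to 0.07) and -0.09 ± 0.14 for VEGF Trap minus Fc (interval -0.39 to 0.21), so a change of 1.5-fold in either direction lay outside both intervals. Pfkfb4 had -0.21 ± 0.22 and -0.09 ± 0.21 in the same contrasts.

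In the lower part of glycolysis, 5 of 6 genes had a log2 fold change below 0 for ABTAA minus Fc, 2 of 6 for VEGF Trap minus Fc and 6 of 6 where ABTAA was set against VEGF Trap, and 50.4%, 49.9% and 50.5% of all genes did. The phosphoglycerate kinase Pgk1, the first of the pathway's steps that makes ATP, had 26.2, 29.7 and 29.4 CPM in the ABTAA libraries, 31.4, 30.3 and 31.9 CPM in the VEGF Trap libraries and 32.1, 37.5 and 33.0 CPM in the Fc libraries. With TMM scaling the 3 groups did not overlap, in the order ABTAA, VEGF Trap and Fc from low to high, but VEGF Trap and Fc overlapped with RLE size factors and the steps were small (-0.27 ± 0.13 for ABTAA minus Fc, adjusted p = 0.326, and -0.13 ± 0.13 for ABTAA minus VEGF Trap, edgeR). The pyruvate kinase Pkm had 249, 249 and 248 CPM in the ABTAA libraries, 272, 288 and 296 CPM in the VEGF Trap libraries and 243, 284 and 242 CPM in the Fc libraries. Its ABTAA libraries were below all VEGF Trap libraries (-0.20 ± 0.10, adjusted p = 0.962) and within the Fc range (-0.04 ± 0.10). Glyceraldehyde-3-phosphate dehydrogenase, Gapdh, had 14.0, 12.3 and 13.8 CPM in the ABTAA libraries, 15.9, 15.2 and 13.9 CPM in the VEGF Trap libraries and 20.0, 25.3 and 14.3 CPM in the Fc libraries. Here ABTAA lay below Fc without overlap, but Fc 3 exceeded ABTAA 1 only slightly. The log2 fold change was -0.57 ± 0.20 (adjusted p = 0.154, edgeR) and became -0.36 without Fc 2, the highest library. The last 200 bases of Gapdh have 125 copies elsewhere among annotated transcripts, so reads of this gene can be lost or shared and its level here is uncertain. The mutase Pgam1 had 0.06 ± 0.14, the enolases Eno1 -0.23 ± 0.18 and Eno2 -0.34 ± 0.27 for ABTAA minus Fc.

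Lactate metabolism held the gene with the lowest p-values of the 38 between ABTAA and VEGF Trap and over the 3 groups in edgeR. Slc16a3 (Mct4), the low-affinity exporter by which glycolytic cells release lactate, had 102, 85.3 and 78.3 CPM in the ABTAA libraries, 129.7, 134 and 129 CPM in the VEGF Trap libraries and 119, 97.4 and 97.7 CPM in the Fc libraries. All 3 VEGF Trap libraries lay within 129 to 134 CPM and above every ABTAA and every Fc library. The log2 fold change was -0.57 ± 0.13 for ABTAA minus VEGF Trap (unadjusted p = 0.000415, adjusted p = 0.851, edgeR), 0.32 ± 0.13 for VEGF Trap minus Fc (adjusted p = 0.218) and -0.24 ± 0.13 for ABTAA minus Fc (adjusted p = 0.355). ABTAA minus VEGF Trap stayed between -0.68 and -0.49 whichever library was left out. With all libraries kept, other scalings, filters and models in edgeR or DESeq2 gave adjusted p-values from 0.0452 to 0.999 in this contrast. The lowest was that of edgeR without the filter on low counts. Over the 3 groups its adjusted p of 0.0752 in edgeR compares with 0.0119 without the filter on low counts and 0.00262 in DESeq2. In edgeR it was 0.0785 with library totals alone and 0.0881 after division of the counts by their common divisor. With a block for the replicate numbers of the titles it was 0.0443 in edgeR. Without ABTAA 1 it was 0.0653 and without Fc 2 it was 0.222, and no omission of a library brought it under 0.05. Counts of Slc16a3 were multiples of 3 in every library. The macrophage marker sum, given above, was lower in every ABTAA library than in every VEGF Trap library, and its part in the Slc16a3 values was not tested.

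The importer Slc16a1 (Mct1), which RPE carries on its retinal face, had 89.6, 103 and 90.3 CPM in the ABTAA libraries, 102, 90.8 and 116 CPM in the VEGF Trap libraries and 63.8, 81.1 and 88.3 CPM in the Fc libraries. All ABTAA and all VEGF Trap libraries lay above all Fc libraries, by 0.28 ± 0.14 (adjusted p = 0.333, edgeR) and 0.40 ± 0.14 (adjusted p = 0.164) on the log2 scale. Lactate dehydrogenase A, Ldha, which turns pyruvate into lactate, had 378, 300.2 and 338 CPM in the ABTAA libraries, 421, 334 and 445 CPM in the VEGF Trap libraries and 481, 497 and 378 CPM in the Fc libraries. The ABTAA and Fc ranges only touched, at the highest ABTAA and the lowest Fc library. Ldha had a log2 fold change of -0.42 ± 0.14 for ABTAA minus Fc (adjusted p = 0.13, edgeR, against 0.0433 in DESeq2) and -0.18 ± 0.14 for VEGF Trap minus Fc. The heart isozyme Ldhb, which favours the reverse reaction, had 46.2, 61.8 and 38.4 CPM in the ABTAA libraries, 44.6, 48.3 and 56.5 CPM in the VEGF Trap libraries and 46.7, 53.2 and 43.2 CPM in the Fc libraries, with overlapping groups. The counts of Ldha over those of Ldhb were 8.18, 4.86 and 8.79 in the ABTAA libraries, 9.44, 6.92 and 7.88 in the VEGF Trap libraries and 10.3, 9.33 and 8.74 in the Fc libraries, and these ranges overlapped too. The last 200 bases have 8 copies elsewhere for Ldha and 1 for Ldhb. Pdk1, the kinase that shuts pyruvate out of the mitochondrion in hypoxia, had log2 fold changes of -0.28 ± 0.33 and -0.32 ± 0.33 against Fc for ABTAA and VEGF Trap.

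**Figure D2:**
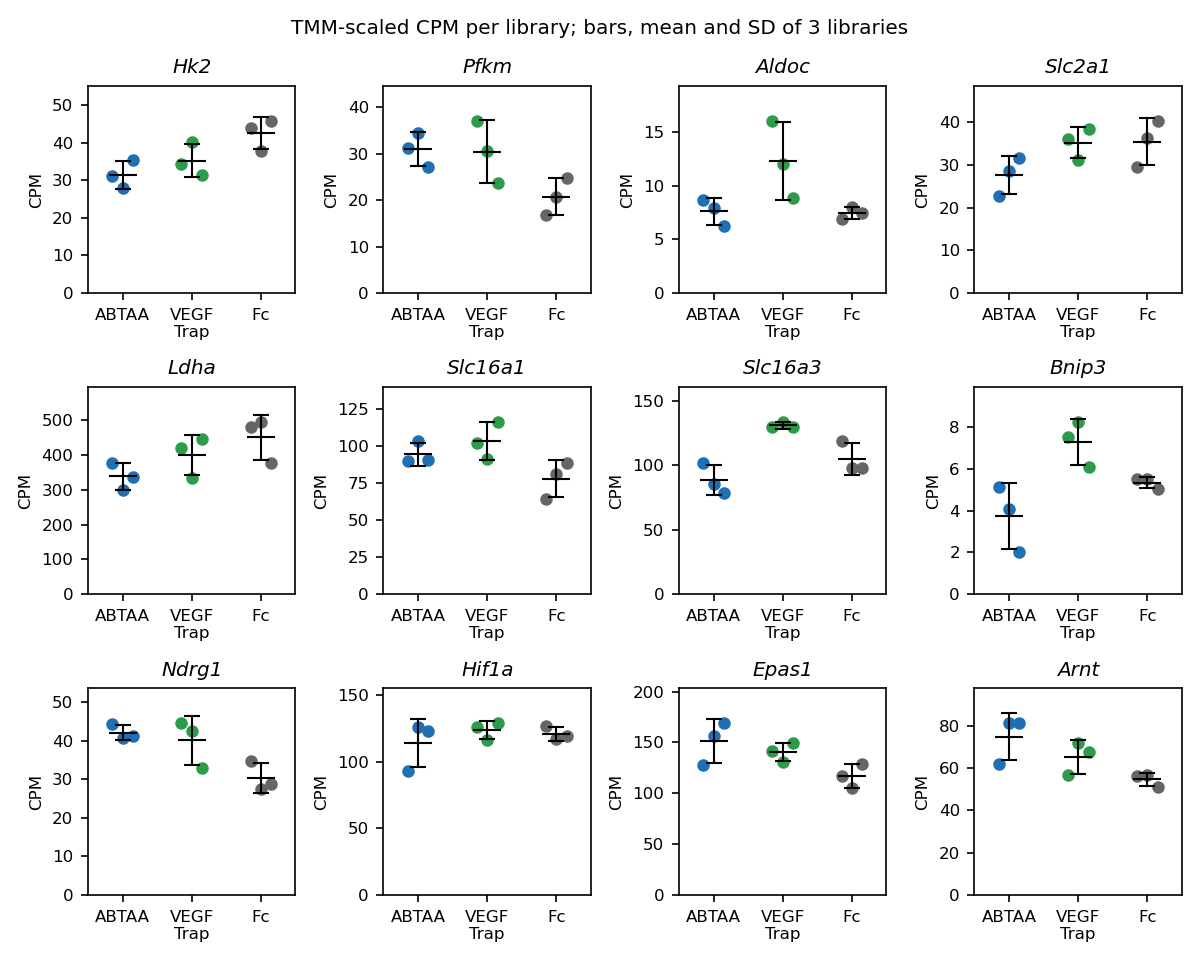
TMM-scaled CPM (vertical axes, from 0) of 12 of the genes in each library; each point is 1 library, and the bar and whiskers are the mean and SD of 3. Slc16a3 in VEGF Trap sits between 129 and 134 CPM, above all other libraries, and Arnt in ABTAA sits above all Fc libraries.

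Of the oxygen-sensing genes, the alpha subunits come first. Hif1a, the subunit found in nearly all cells, had 93.2, 126 and 123 CPM in the ABTAA libraries, 126, 117 and 129.5 CPM in the VEGF Trap libraries and 127, 117 and 119 CPM in the Fc libraries. Apart from the low ABTAA 1, all libraries lay within a narrow range, and the log2 fold change was -0.08 ± 0.13 for ABTAA minus Fc (interval -0.35 to 0.18) and 0.04 ± 0.12 for VEGF Trap minus Fc (interval -0.23 to 0.30). Epas1 (HIF-2 alpha), which is abundant in endothelium, had 127, 156 and 169.6 CPM in the ABTAA libraries, 141, 131 and 149 CPM in the VEGF Trap libraries and 117, 105 and 129 CPM in the Fc libraries. VEGF Trap lay above Fc without overlap, and ABTAA 1 was the only ABTAA library inside the Fc range. Epas1 had 0.37 ± 0.13 for ABTAA minus Fc (adjusted p = 0.153, edgeR) and 0.26 ± 0.13 for VEGF Trap minus Fc (adjusted p = 0.346). The endothelial marker sum had the same order of groups, ABTAA, VEGF Trap and Fc from high to low, and its part in the Epas1 values was not tested.

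The Hif1a count over the Epas1 count was 0.732, 0.805 and 0.727 in the ABTAA libraries, 0.893, 0.891 and 0.869 in the VEGF Trap libraries and 1.08, 1.11 and 0.924 in the Fc libraries. The 3 groups did not overlap. The exact two-sided permutation test gave p = 0.10 in each of the 3 contrasts, the smallest that 3 against 3 libraries allow, and 0.467 adjusted over the 21 comparisons of 7 such gene ratios. The log2 ratio differed by -0.46 for ABTAA minus Fc, by -0.23 for VEGF Trap minus Fc, and by -0.23 also between ABTAA and VEGF Trap. The other ratios had an unadjusted p of 0.2 or more in every contrast of the permutation test. How often pairs of other genes separate the groups in this way was not counted. The part of the endothelial marker sum, given above for Epas1, was not tested for the ratio either.

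Arnt, the common partner, had 61.9, 81.6 and 81.4 CPM in the ABTAA libraries, 56.6, 71.8 and 67.6 CPM in the VEGF Trap libraries and 56.2, 57.0 and 51.1 CPM in the Fc libraries. All 3 ABTAA libraries were above all 3 Fc libraries, and VEGF Trap 1 fell inside the Fc range. Its log2 fold change was 0.45 ± 0.14 for ABTAA minus Fc (adjusted p = 0.113, edgeR, against 0.0386 in DESeq2) and 0.25 ± 0.14 for VEGF Trap minus Fc (adjusted p = 0.411). Vhl, the substrate receptor of the ligase that destroys HIF alpha, had 19.5, 16.1 and 17.2 CPM in the ABTAA libraries, 16.6, 20.5 and 15.4 CPM in the VEGF Trap libraries and 17.6, 14.5 and 14.6 CPM in the Fc libraries, with overlap and a log2 fold change of 0.17 ± 0.17 for ABTAA minus Fc. The hydroxylase Egln3, itself a classic HIF target, was low, with 3.51, 1.49 and 2.34 CPM in the ABTAA libraries, 2.98, 1.81 and 2.22 CPM in the VEGF Trap libraries and 3.64, 2.80 and 2.44 CPM in the Fc libraries. Its interval, -1.17 to 0.63 for ABTAA minus Fc, did not exclude a 2-fold decrease. Egln1, the main oxygen sensor among the hydroxylases, had 0.09 ± 0.19 for ABTAA minus Fc and -0.06 ± 0.19 for VEGF Trap minus Fc.

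The directions of the 8 hypoxia-induced genes that encode neither sensors nor enzymes of glycolysis differed by contrast. For ABTAA minus Fc 5 of 8 were below 0, for VEGF Trap minus Fc 2 of 8, and for ABTAA minus VEGF Trap 4 of 8. Over all genes 50.4%, 49.9% and 50.5% were. The median log2 fold changes of the 8 were -0.09, 0.28 and -0.08 in the same contrasts. Bnip3, a mitophagy receptor, had 5.16, 4.06 and 2.03 CPM in the ABTAA libraries, 7.54, 8.28 and 6.09 CPM in the VEGF Trap libraries and 5.51, 5.51 and 5.04 CPM in the Fc libraries. All VEGF Trap libraries were above all others, and the lowest value was that of ABTAA 3. The log2 fold change was -0.94 ± 0.31 for ABTAA minus VEGF Trap (unadjusted p = 0.00806, adjusted p = 0.932, edgeR), with -1.23 to -0.67 on leaving out single libraries, 0.46 ± 0.30 for VEGF Trap minus Fc and -0.48 ± 0.31 for ABTAA minus Fc. Bnip3 has 5 copies of its last 200 bases elsewhere and overlaps Gm45507 on the other strand. Car9, the tumour hypoxia marker carbonic anhydrase 9, was 0.0991 to 0.625 CPM in ABTAA, 0.831 to 1.18 CPM in VEGF Trap and 0.339 to 1.07 CPM in Fc libraries, near the floor of 3 counts.

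Ndrg1, a stress-induced protein of differentiation, had 44.3, 40.6 and 41.3 CPM in the ABTAA libraries, 44.7, 42.5 and 33.0 CPM in the VEGF Trap libraries and 34.8, 27.5 and 28.8 CPM in the Fc libraries. ABTAA lay above Fc without overlap, and only VEGF Trap 3 lay inside the Fc range. Log2 fold changes were 0.47 ± 0.15 for ABTAA minus Fc (adjusted p = 0.118, edgeR, against 0.0492 in DESeq2) and 0.41 ± 0.15 for VEGF Trap minus Fc (adjusted p = 0.187). Ddit4 (Redd1), an inhibitor of mTORC1, had 48.1, 90.2 and 89.7 CPM in the ABTAA libraries, 56.2, 60.5 and 66.6 CPM in the VEGF Trap libraries and 63.3, 59.6 and 56.8 CPM in the Fc libraries. ABTAA 2 and 3 were the highest of all libraries and ABTAA 1 the lowest, and the log2 fold change of 0.34 ± 0.19 for ABTAA minus Fc ranged from 0.20 to 0.58 on leaving out single libraries. Hmox1, the haem oxygenase that answers oxidative stress and haem as well as hypoxia, had 66.8, 83.1 and 109 CPM in the ABTAA libraries, 131, 80.9 and 133 CPM in the VEGF Trap libraries and 114, 80.2 and 97.6 CPM in the Fc libraries, a wide spread within each group, with -0.41 ± 0.20 for ABTAA minus VEGF Trap. The lipid droplet protein Hilpda had -0.22 ± 0.13 for ABTAA minus Fc and -0.02 ± 0.13 for VEGF Trap minus Fc, the transcriptional repressor Bhlhe40 0.00 ± 0.16 and -0.04 ± 0.16, and the low transcript Ankrd37 1.15 ± 0.70 and 0.92 ± 0.69.

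**Figure D3:**
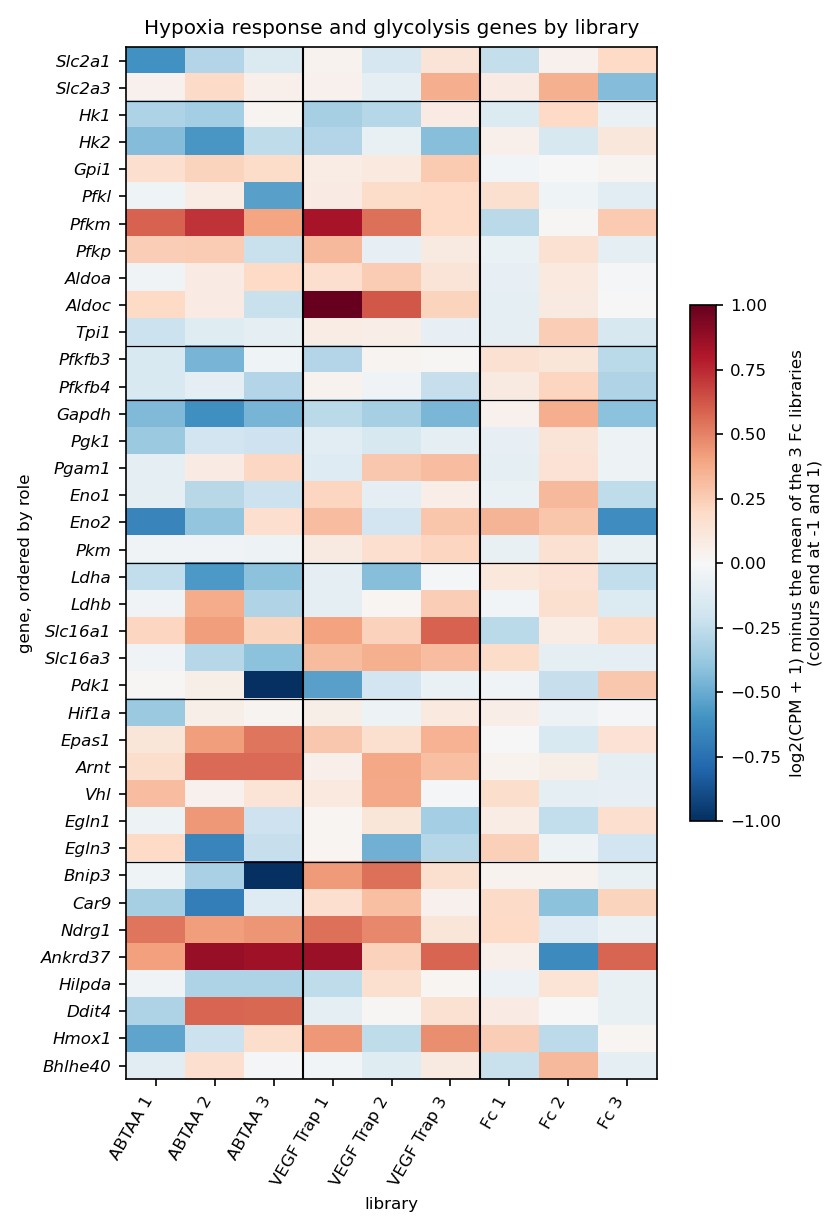
Each row is 1 of the 38 genes and each column 1 library, coloured by log2(CPM + 1) minus the mean of the 3 Fc libraries, with lines between groups and between roles. Aldoc and Pfkm in VEGF Trap 1 are among the darkest reds, Hk2 and Gapdh are blue in all ABTAA and nearly all VEGF Trap libraries, and single libraries such as ABTAA 3 (Pdk1, Bnip3) stand alone.

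Setting ABTAA directly against VEGF Trap, 9 of the 38 genes had all 3 ABTAA libraries below all 3 VEGF Trap libraries, where 4.74% of all genes did, and 0 of 38 had them all above, where 5.14% of all genes did (9.88% in either direction). The 9 were Pfkl, Aldoc and Tpi1 of the upper pathway, Pgk1, Eno1 and Pkm of the lower pathway, the lactate exporter Slc16a3, and Bnip3 and Car9. Their log2 fold changes ran from -1.48 (Car9) to -0.13 (Pgk1), and the adjusted p-values in edgeR from 0.851 to 0.967. With RLE size factors the count was 8 of 38 (4.84% of all genes), and with library totals alone it was 6 of 38 (3.88%). Of the 38 log2 fold changes in this contrast, 26 were below 0, where 50.5% of all genes were. The 38 genes summed to 3239.7 to 3492 CPM in ABTAA, 3594 to 3771 CPM in VEGF Trap and 3253 to 3632 CPM in Fc libraries. None of the 9 passed the test.

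Against Fc, 8 of 38 genes (21.1%) had groups without overlap in each contrast, where 23% of all genes did for ABTAA and 20.9% for VEGF Trap. Between ABTAA and Fc, 5 of 38 lay higher without overlap (Gpi1, Pfkm, Slc16a1, Arnt and Ndrg1), where 11.7% of all genes did, and 3 of 38 lower (Hk2, Gapdh and Pgk1), where 11.3% did. With library totals alone 4 lay higher and 6 lower between ABTAA and Fc, where 9.24% and 13.9% of all genes did. Between VEGF Trap and Fc, 7 of 38 lay higher (Gpi1, Aldoa, Aldoc, Slc16a1, Slc16a3, Epas1 and Bnip3), where 10.4% of all genes did, and 1 of 38 lower (Pgk1), where 10.5% did. With RLE size factors 7 lay higher and 0 lower between VEGF Trap and Fc, where 10.5% and 10.2% of all genes did. With library totals alone 3 lay higher and 2 lower between VEGF Trap and Fc, where 6.52% and 15.4% of all genes did.

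The sum over roles placed the groups in different orders. Such sums weigh genes by their level. In Fc, Pkm averaged 256 CPM of the 437 CPM of lower glycolysis, and Ldha 452 CPM of the 689 CPM of the lactate and pyruvate genes. Lower glycolysis summed to 400.5 to 429 CPM in ABTAA, 445 to 493 CPM in VEGF Trap and 402 to 489.8 CPM in Fc libraries. The lactate and pyruvate genes summed to 548 to 622 CPM in ABTAA, 613 to 754 CPM in VEGF Trap and 615 to 734 CPM in Fc libraries. The oxygen-sensing genes summed to 326 to 413 CPM in ABTAA, 365 to 381 CPM in VEGF Trap and 314 to 344 CPM in Fc libraries. In the lactate group ABTAA 1 was the only ABTAA library to reach the range of VEGF Trap or Fc, and in the oxygen-sensing group all VEGF Trap libraries lay above all Fc libraries.

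HIF binds a short core, ACGTG or GCGTG, so the proximal promoters of the genes above were searched for it. Windows from 250 bases before to 50 bases after the start were taken from RefSeq (GRCm38.p6), and 33 of the 38 genes had one. For a gene with several windows the first listed was taken, among the 38 and in the background alike. The 6 printed here were chosen with their values known, and all 6 hold a core. Slc16a3, Bnip3 and Aldoc had no overlap between ABTAA and VEGF Trap libraries. Slc2a1, Hk2 and Ldha had lower mean values in ABTAA than in Fc. None of the 6 genes passed the edgeR test described above. Of the other genes without overlap between ABTAA and VEGF Trap, Tpi1 and Pkm held neither core in the window taken. Pfkl and Eno1 held GCGTG only, and Pgk1 and Car9 held ACGTG. The 6 windows are written 5′ to 3′ on the strand of the gene in lower case, and capitals mark each ACGTG or GCGTG on either strand (CACGT or CACGC where it lies on the other strand).
Slc16a3 (chr11:120948817-120949116, plus strand): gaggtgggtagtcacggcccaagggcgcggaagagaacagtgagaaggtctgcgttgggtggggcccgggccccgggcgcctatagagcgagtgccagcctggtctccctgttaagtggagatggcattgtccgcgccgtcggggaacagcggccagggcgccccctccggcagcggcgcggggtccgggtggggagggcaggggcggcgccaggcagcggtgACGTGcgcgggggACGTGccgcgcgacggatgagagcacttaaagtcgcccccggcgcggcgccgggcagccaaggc
Bnip3 (chr7:138909457-138909756, minus strand): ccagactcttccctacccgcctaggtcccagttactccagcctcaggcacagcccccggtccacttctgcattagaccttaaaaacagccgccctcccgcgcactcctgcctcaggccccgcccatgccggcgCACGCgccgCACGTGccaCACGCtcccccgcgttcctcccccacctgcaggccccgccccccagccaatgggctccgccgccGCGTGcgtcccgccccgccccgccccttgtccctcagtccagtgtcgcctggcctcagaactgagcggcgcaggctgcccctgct
Aldoc (chr11:78322823-78323122, plus strand): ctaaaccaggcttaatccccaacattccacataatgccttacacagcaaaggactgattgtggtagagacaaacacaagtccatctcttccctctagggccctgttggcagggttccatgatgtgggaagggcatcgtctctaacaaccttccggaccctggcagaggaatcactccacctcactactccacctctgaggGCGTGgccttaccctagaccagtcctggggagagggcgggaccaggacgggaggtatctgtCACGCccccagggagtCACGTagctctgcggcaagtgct
Slc2a1 (chr4:119108495-119108794, plus strand): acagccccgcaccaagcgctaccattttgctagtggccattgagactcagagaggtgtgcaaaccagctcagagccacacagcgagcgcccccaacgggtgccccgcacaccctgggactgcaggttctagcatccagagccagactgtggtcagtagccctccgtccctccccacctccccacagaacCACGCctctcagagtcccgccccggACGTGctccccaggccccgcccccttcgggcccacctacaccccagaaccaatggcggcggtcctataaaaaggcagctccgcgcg
Hk2 (chr6:82774405-82774704, minus strand): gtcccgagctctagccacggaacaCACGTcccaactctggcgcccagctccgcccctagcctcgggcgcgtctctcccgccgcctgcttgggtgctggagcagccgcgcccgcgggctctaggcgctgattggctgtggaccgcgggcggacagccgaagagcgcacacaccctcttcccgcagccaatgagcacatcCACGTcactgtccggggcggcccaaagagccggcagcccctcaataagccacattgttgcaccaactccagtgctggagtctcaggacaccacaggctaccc
Ldha (chr7:46845554-46845853, plus strand): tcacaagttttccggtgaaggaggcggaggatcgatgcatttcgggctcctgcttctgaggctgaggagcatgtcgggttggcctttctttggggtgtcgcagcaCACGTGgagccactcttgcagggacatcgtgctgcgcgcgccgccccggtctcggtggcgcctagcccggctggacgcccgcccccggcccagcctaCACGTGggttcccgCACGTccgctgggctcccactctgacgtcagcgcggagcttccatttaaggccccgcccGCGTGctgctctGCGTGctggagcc
Counting the start base as 0 and giving the leftmost base of each match, Slc16a3 had ACGTG at -27 and -14, close to the start. Slc2a1 had matches at -61 and -36, Hk2 at -226 and -52, and Aldoc at -50, 11 and 27. Bnip3 had 5 matches in 4 separate stretches, from -117 to -35, and Ldha 7 matches in 5 stretches, from -145 to 37. In Ldha 2 of the stretches, and in Bnip3 1, read CACGTG, a palindrome that counts once on each strand and is also the E-box bound by Myc and related factors.

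Of the 33 windows, 18 held ACGTG (54.5%), against 19.7% of 27025 RefSeq promoters and 24.9% of the 10570 whose gene was tested here. GCGTG was in 18 windows as well, against 32.5% of all promoters and 50.4% of those of tested genes. Either core was in 26 (78.8%), against 43.8% and 61.7%. Both cores contain a CG pair, and the median window held 21 CG pairs for the 38-gene set and 20 for tested genes. The genes were listed as known hypoxia genes to begin with, and a match of 5 bases is a description, not a bound site. The plot of match positions shows no expression values, and whether the cores go with the values of the genes was not tested. Of the 7 genes with no match in the window searched, Hk1, Aldoa and Pkm have one in another of their windows.

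**Figure D4:**
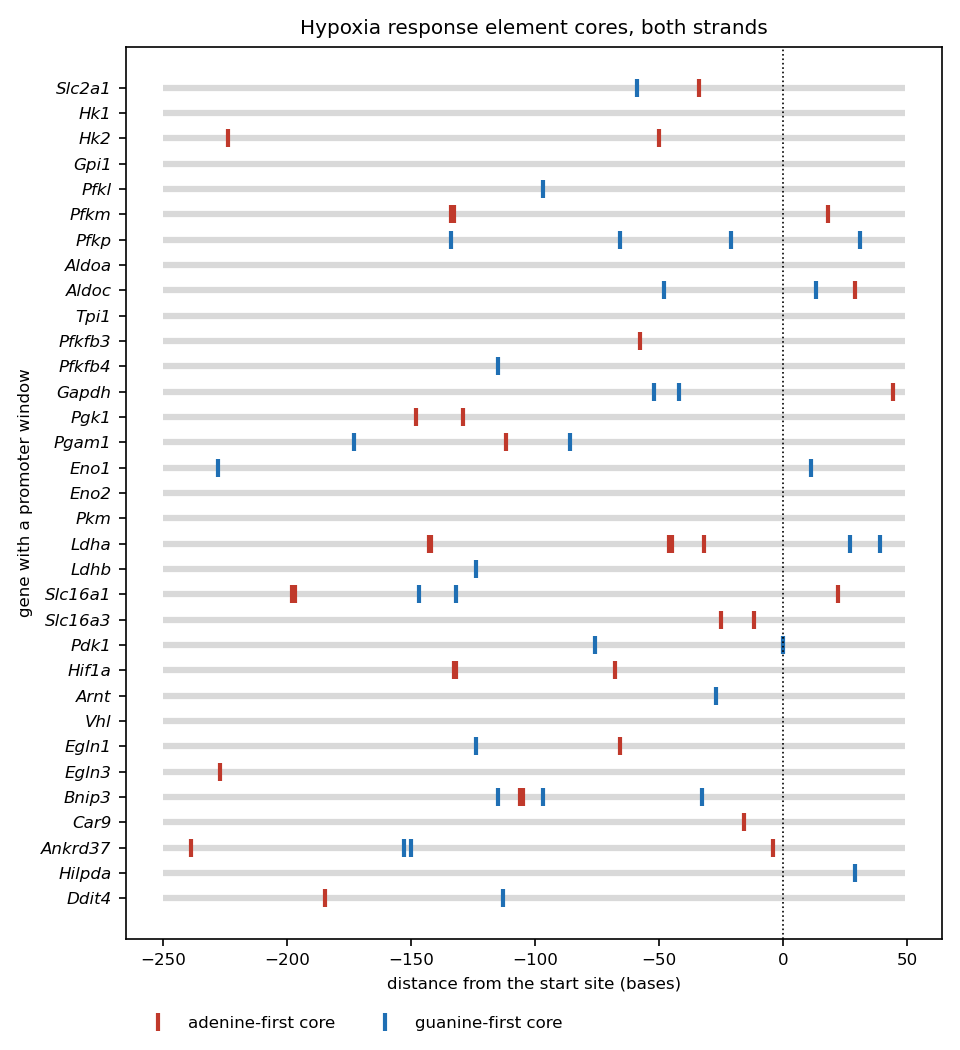
Positions of the adenine-first and guanine-first hypoxia response cores (ticks at the middle of the match, both strands) in the 33 RefSeq promoter windows, by distance in bases from the start site at 0; grey bars are the windows. Ticks occur in 26 windows and are absent from 7, and the pair of Slc16a3 lies just before the start.

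Neighbouring pathways gave the same count of 0. Of 27 other HIF target genes tested (of 28 listed) 0 passed in any comparison, and the median log2 fold change was -0.08 for ABTAA minus Fc and -0.08 for VEGF Trap minus Fc. At an unadjusted p under 0.05 in edgeR, 6 of the 27 stood out between ABTAA and Fc (2 higher and 4 lower in ABTAA), where 16.9% of all genes did. Between VEGF Trap and Fc 4 of 27 did (2 higher and 2 lower in VEGF Trap), where 15.4% did, and between ABTAA and VEGF Trap 0 of 27 did, where 5.06% did. Vegfa, the main angiogenic HIF target, had 234, 309 and 316 CPM in the ABTAA libraries, 312, 291 and 291 CPM in the VEGF Trap libraries and 279, 362 and 260.4 CPM in the Fc libraries, with overlapping groups, -0.07 ± 0.14 for ABTAA minus Fc (interval -0.36 to 0.23) and -0.01 ± 0.14 for VEGF Trap minus Fc (interval -0.31 to 0.28). Adm and Kdm4b are given as examples from each direction, chosen after their values were seen. The vasodilator peptide adrenomedullin, Adm, had 16.0, 13.8 and 17.0 CPM in the ABTAA libraries, 30.2, 19.6 and 12.6 CPM in the VEGF Trap libraries and 37.8, 33.9 and 21.4 CPM in the Fc libraries, with -1.0 ± 0.27 for ABTAA minus Fc (adjusted p = 0.0699, edgeR). The histone demethylase Kdm4b had 0.98 ± 0.25 for VEGF Trap minus Fc (adjusted p = 0.0622, edgeR).

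Nor did any gene pass among 9 tested of 10 further oxygen-sensing genes, 12 of pyruvate oxidation, 7 of the pentose phosphate pathway or 11 tested of 15 for gluconeogenesis and other hexokinases. The 7 tested of 8 muscle isozymes of glycolysis and glycogen breakdown had medians of 0.10 for ABTAA minus Fc and 0.34 for VEGF Trap minus Fc, with 0 past the threshold. The muscle enolase Eno3 had 10.2, 24.7 and 14.1 CPM in the ABTAA libraries, 19.4, 23.4 and 11.6 CPM in the VEGF Trap libraries and 10.1, 10.2 and 16.0 CPM in the Fc libraries, and its log2 fold change was 0.43 ± 0.31 for ABTAA minus Fc and 0.60 ± 0.31 for VEGF Trap minus Fc. At an unadjusted p under 0.05 in edgeR, these 5 lists held 3 of 46 genes between ABTAA and Fc, 4 of 46 between VEGF Trap and Fc and 1 of 46 between ABTAA and VEGF Trap, where the shares of all genes were those given above.

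In GRCm38, GENCODE M21 places Slc16a3 at chr11:120948480-120960868, Aldoc at chr11:78322968-78327781, Bnip3 at chr7:138890836-138909519, Hk2 at chr6:82725025-82774454, Ldha at chr7:46841475-46855627, Slc2a1 at chr4:119108711-119137983, Pfkm at chr15:98092589-98132451, Arnt at chr3:95434388-95497240, Epas1 at chr17:86753700-86833410, Hif1a at chr12:73901375-73947530 and Ndrg1 at chr15:66929318-66969640, all protein coding. Of the 38 genes, 9 have a copy of their last 200 bases in another annotated transcript, so reads of these can be shared. An exon on the other strand overlaps 14 of them. These overlaps were sought over all exons, so those away from the 3′ end may not touch the reads.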

How the data were processed

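RNA of 9 laser-captured RPE and choroid samples was sequenced from 3′ ends with the LEXOGEN QuantSeq kit, per the labels' protocols. The deposited tables hold raw counts per gene symbol, made by the authors with Bowtie2 and the mm10 build and with edgeR named as a tool, per the submitters' processing notes. Not given in the sources used here are the strand setting, the annotation and how multiply mapped reads were counted. Counts of 6 of the 38 genes shared a divisor above 1 in all libraries, so reads may have been entered more than once. The divisor was 3 for Slc16a3 and 2 for Aldoc, Gapdh, Pkm, Ldhb and Hilpda. Groups came from the sample titles. Columns of the Fc tables are headed as knockout controls, unlike those titles.

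Counts were filtered with filterByExpr (minimum 10), TMM-scaled and tested in edgeR 4.0.16 (R 4.3.3, quasi-likelihood F-test, all 9 libraries, 6 residual degrees of freedom), with Benjamini-Hochberg adjustment over 14054 genes and a threshold of 0.05. The SE came from the log2 fold change and F, and intervals cover 95%. The pipeline was tested on simulated data. Coordinates and copies came from GENCODE M21 and BLAST+ 2.17.0 (at least 100 of the last 200 bases at 95% identity).

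Values in every library are given for genes that passed, or whose groups did not overlap at an unadjusted p under 0.05, and for Slc2a1, Hk1, Hk2, Pfkfb3, Pgk1, Pkm, Ldha, Ldhb, Hif1a, Epas1, Vhl, Egln3, Bnip3, Ddit4, Hmox1, Vegfa and Eno3. The 38 genes and the other lists were chosen with earlier results of these data known. A gene counted in the list of other HIF targets is not reported here by name. Replicate libraries differed by more than counting noise (chi-square per degree of freedom 8.12 to 19.3). Alternatives were DESeq2 1.42.0, other scalings and filters, only the compared groups, a replicate block, division by common divisors (added after seeing the data, as were the scalings for counts without overlap) and leaving out each library.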

Additional observations from a re-analysis of the deposited data

How the results depend on the processing

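Of the 38 genes, the count past the threshold stayed 0 under RLE size factors, library totals, the filter of 10 counts in 6 libraries, the fit of only the compared groups, division by common divisors, and each omission of 1 library, so its range on leaving out a library was 0 to 0. It moved to 2 (Ldha lower, Pfkm higher) without a filter and to 3 in DESeq2 for ABTAA minus Fc, to 1 (Slc16a3) without a filter for ABTAA minus VEGF Trap, and for the 3 groups to 2 without a filter (Pfkm, Slc16a3), 1 in DESeq2 and 1 with the replicate block (Slc16a3 in both, adjusted p = 0.0443 in edgeR with the block). For VEGF Trap minus Fc it was 0 throughout. The cause was not tested. At an unadjusted p under 0.05, leaving out libraries gave 5 to 11 of the 38 for ABTAA minus Fc, 4 to 6 for VEGF Trap minus Fc and 3 to 6 for ABTAA minus VEGF Trap. The members' median ranged over -0.15 to -0.02, 0.05 to 0.14 and -0.15 to -0.10 in the same contrasts. DESeq2 gave no adjusted p for 6 of the 38 in each contrast with Fc and in the test of the 3 groups.

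Over all genes, ABTAA minus Fc called 197, against 684 without a filter, 729 in DESeq2, 334 with the replicate block, 301 with only the compared groups, and 0 (without ABTAA 2) to 373 (without VEGF Trap 1) on leaving out a library. VEGF Trap minus Fc called 144, against 221 with library totals (39 higher, where TMM gave 72), 616 without a filter, 664 in DESeq2, 300 with the block, 249 after division by common divisors, and 7 (without Fc 2) to 144 (without ABTAA 3) on leaving out a library. ABTAA minus VEGF Trap called 0, against 30 without a filter, 1 with the block, and 0 to 0 on leaving out a library. The 3 groups called 145, against 810 without a filter, 795 in DESeq2, 252 with the block, 245 after division, and 10 (without Fc 2) to 180 (without VEGF Trap 1) on leaving out a library. Library totals moved the median of all genes by -0.05, -0.08 and 0.03 in the 3 contrasts.

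Of 1122 values of 22 named genes under the alternatives, 46 had the other sign, none of them past the threshold either way, and the reported log2 fold change of those was at most 0.27 in size. The other 1070 kept their sign and their side of the threshold, and 6 passed it. The main fit did not pair libraries by the replicate numbers of the titles. Correlations of same-numbered libraries ran from 0.013 to 0.112, and those of differently numbered libraries from -0.092 to 0.037. Every same-numbered correlation was positive, and the largest were those of ABTAA 1 with VEGF Trap 1 (0.112) and with Fc 1 (0.105). As an exception to the order, ABTAA 2 had 0.035 with Fc 3 and 0.022 with Fc 2. Whether the numbers mark a shared effect was not tested. The block changed no other call among the 38, but it raised the counts over all genes given above. The 3 libraries a group limit what these data can show. The intervals of Car9, Ankrd37, Slc2a3 and Bnip3 reached past 2-fold in each contrast, and that of Egln3 in both contrasts with Fc. That of Aldoc did so in both contrasts with VEGF Trap. So did those of Gapdh for ABTAA minus Fc, Pdk1 for VEGF Trap minus Fc and Eno2 for ABTAA minus VEGF Trap.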
